A study of Mus musculus and Homo sapiens with 40 samples.

Results

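The 37 neutrophil granule and effector genes are a named list of mouse genes whose products fill neutrophil granules, build the respiratory burst oxidase, or serve neutrophils as cytosolic effectors, adhesion molecules and receptors. They were chosen by name and are 37 of 21440 protein-coding genes, and all 37 symbols were found in the GENCODE annotation of GRCm39. By role they comprise 8 primary granule genes, 14 specific and gelatinase granule genes, 4 oxidase subunits, 5 cytosolic effectors and 6 adhesion molecules and receptors.

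The series consists of ChIP-seq, of which 20 immunoprecipitated samples of mouse HPC-7 cells entered the 10 peak lists used here. HPC-7 is a hematopoietic progenitor line, and each of its 2 sublines carries a retroviral transgene for 1 CEBPA isoform, the full-length p42 or the N-terminally shortened p30, fused to ERT2, an estrogen receptor fragment that holds a protein outside the nucleus until hydroxytamoxifen is given. Per the methods of the study, cells with ERT2 fusions were given hydroxytamoxifen the day before an experiment. The sample titles do not name it, and untreated here means without LPS. Acetylated histone H3 (H3K27ac, a mark of active promoters and enhancers) was mapped in untreated cells and after LPS at 100 ng/mL for 2 h, with 3 samples pooled per list, and monomethylated histone H3 (H3K4me1, a mark of enhancers) in untreated cells, with 2 samples pooled per list. The fusion protein was mapped with an antibody against CEBPA and with one against the ER part, each in 1 library per line, so 4 lists describe CEBPA sites. The titles of the anti-ER samples say untreated, and those of the anti-CEBPA samples name no treatment. No list came from cells without a CEBPA fusion, no list has a replicate beside it, and the isoform and the cell line that carries it cannot be told apart. Differences between lists therefore have no replicate error and no p-value, and the lists do not give the reads behind them, for which the methods of the study state only a range per sample.

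Neutrophils load their granules in a fixed order while they mature. Myeloperoxidase and the serine proteases are made first and packed into primary granules, lactoferrin and cathelicidin follow in specific granules, and gelatinase granules are filled last. CEBPA drives progenitors toward the granulocyte lineage, and in acute myeloid leukemia CEBPA mutations often leave p30 as the only isoform made. The oxidase, formed by a membrane cytochrome and cytosolic subunits, produces superoxide, and the integrin and formyl peptide receptor genes serve migration to bacteria.

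The lists held between 23248 and 168035 peaks, with 107141 to 142419 for H3K27ac, 134658 and 168035 for H3K4me1, 47517 anti-CEBPA peaks in p42 cells and 31851 in p30 cells, and 23248 anti-ER peaks in p42 cells and 34006 in p30 cells. The progenitor label was compared with the acetylated promoters of marker genes. Such a peak was called at 50.4% to 51.8% of all protein-coding genes in the H3K27ac lists. Of 12 stem and progenitor markers, among them Kit, Gata2, Lmo2 and Tal1, 10 to 12 had a promoter H3K27ac peak in each of the 4 lists. Macrophage markers had 4 of 8 in every list, erythroid and megakaryocyte markers 6 or 7 of 10, mast cell and basophil markers 1 of 8, eosinophil markers 1 or 2 of 8, and lymphoid markers 1 or 2 of 10. Erythroid and megakaryocyte markers thus also stood above the share of all genes, so these counts do not set progenitors apart from that lineage.

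Acetylation of the granule and effector genes' promoters was as frequent as in the genome at large, whereas enhancer methylation and CEBPA sites were more frequent. A promoter peak has its summit within 1 kb of a start site of a protein-coding transcript. Promoter H3K27ac was called in 20 of 37 members in untreated p42 cells, in 54.1% (Wilson 95% interval 38.4 to 69.0), beside 50.7% of all protein-coding genes. With LPS, 21 members had it in p42 cells beside 50.4% of all genes. In p30 cells 19 members had it untreated beside 50.6%, and 22 had it with LPS beside 51.8%. All 4 shares lay near that of all genes. The intervals cover the counting of genes only.

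Promoter H3K4me1 was called in 20 members in p42 cells (54.1%, interval 38.4 to 69.0) beside 24.2% of all genes, and in 22 members in p30 cells (59.5%, 43.5 to 73.7) beside 29.4%. In both lines the share of all genes lay below the interval. Anti-CEBPA sites stood at 9 promoters in p42 cells (24.3%, 13.4 to 40.1) beside 10.8% of all genes, and at 9 in p30 cells beside 10.4%. Anti-ER sites stood at 15 promoters in p42 cells (40.5%, 26.3 to 56.5) beside 9.67% of all genes, and at 17 in p30 cells (45.9%, 31.0 to 61.6) beside 15.3%.

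A distal peak lies over 1 kb from every start site and belongs to the gene with the nearest one, within 50 kb. Distal H3K27ac was again near the share of all genes. It was called for 24 members in untreated p42 cells beside 55.1%, for 24 with LPS beside 53.0%, for 20 in untreated p30 cells beside 55.6%, and for 23 with LPS beside 56.2%. Distal H3K4me1 was called for 26 members in p42 cells (70.3%, 54.2 to 82.5) beside 50.8%, and for 27 in p30 cells (73.0%, 57.0 to 84.6) beside 54.1%. Distal CEBPA sites were the most widespread feature of the list in p42 cells, and distal H3K4me1 in p30 cells. With anti-CEBPA, 31 members had one in p42 cells (83.8%, 68.9 to 92.3) beside 50.2% of all genes, and 24 had one in p30 cells (64.9%, 48.8 to 78.2) beside 40.8%. With anti-ER, 30 members had one in p42 cells (81.1%, 65.8 to 90.5) beside 34.3%, and 25 had one in p30 cells (67.6%, 51.5 to 80.4) beside 42%.

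**Figure D1:**
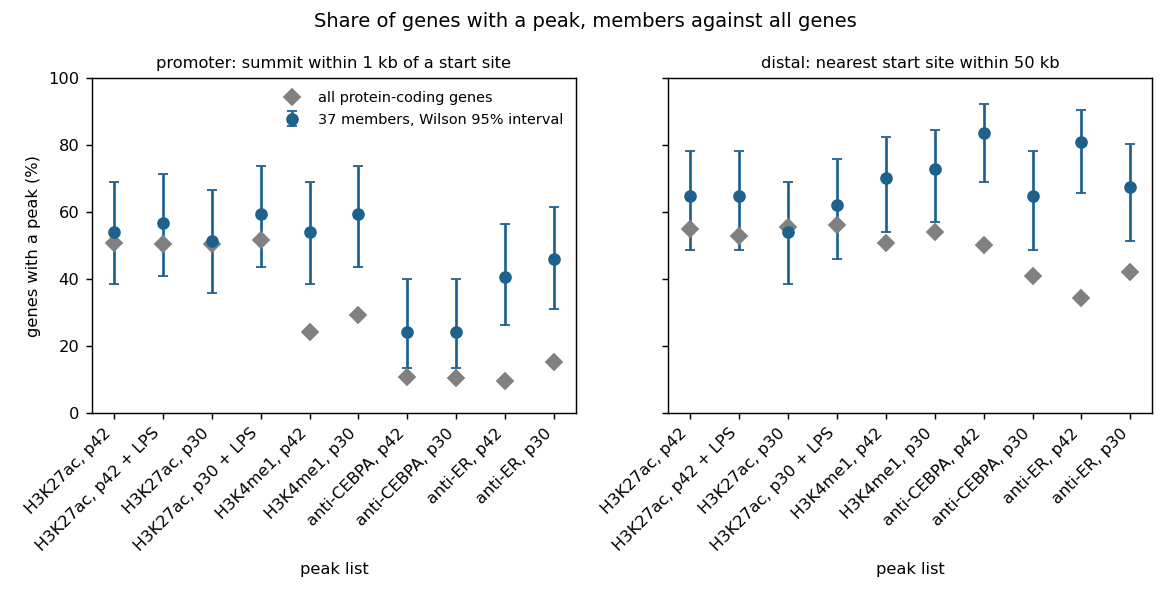
Share of genes with a peak (%, y axis) in each of the 10 peak lists (x axis), at promoters (left) and distally (right). Circles with bars are the 37 members with Wilson 95% intervals and diamonds are all 21440 protein-coding genes. In the H3K27ac lists the diamonds lie within the bars, and in the promoter H3K4me1 lists (24.2% and 29.4%) and the promoter anti-ER lists (9.67% and 15.3%) they lie below them.

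The standing of the members' best peak within its list followed the same line. For the 27 members with an H3K4me1 peak in p42 cells, the median best peak ranked among the top 4.02% of the list, while the median over the 11453 genes with such a peak was 18.7%. In p30 cells the medians were 4.90% and 18%. For H3K27ac the members' best peaks stood lower than those of all genes, at 8.25% against 5.64% in untreated p42 cells and at 8.42% against 5.40% in untreated p30 cells. At CEBPA sites they stood at 24.7% against 31.7% in the p42 anti-CEBPA list and at 14.0% against 32.6% in the p30 anti-ER list.

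CEBPA sites of both lines and both antibodies were the rule among these genes. Each of the 4 lists held a site, at the promoter or distally, for 22 of 37 members (59.5%), beside 30.9% of all genes. It need not be the same site in each list, and 20 members had a single site called in all 4. A further 9 members, Camp, Lcn2, Mmp9, Chil3, Olfm4, Cybb, Padi4, Fpr1 and Ly6g, had sites in both lines but not in all 4 lists, beside 19.1% of all genes. Ngp, Mmp8, Mmp25 and Cd177, 4 members of the specific and gelatinase granule group, had sites in p42 cells alone, beside 7.57% of all genes. No member had sites in p30 cells alone, which was the case for 6.27% of all genes. Ctsg and Bpi, 2 of the primary granule genes, had no site in any list, beside 36.2% of all genes.

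In all, 125 separate CEBPA sites belonged to 35 members, of which 63 lay in introns, 56 between genes and 6 in exons of protein-coding genes. Of these, 33 were in all 4 lists, 28 in p42 lists only and 19 in p30 lists only. Of the 33 shared sites, 27 had their summit inside an H3K27ac peak of an untreated line. Neither this split of sites nor this share was computed over all sites. The sites of 1 line differed in which antibody called them. Of the 28 in p42 lists only, 15 were called with anti-CEBPA alone, 5 with anti-ER alone and 8 with both, and of the 19 in p30 lists only, 2, 16 and 1 were. Their place in H3K27ac is therefore given by antibody, for peaks that overlapped neither list of the other line. Of the members' p42 anti-CEBPA peaks of this kind, 6 of 23 had their summit in H3K27ac of an untreated line (26.1%, 12.5 to 46.5) beside 7.46% of all such peaks. Of the p42 anti-ER peaks 5 of 13 did (38.5%, 17.7 to 64.5) beside 40.1%, and of the p30 anti-ER peaks 14 of 17 (82.4%, 59.0 to 93.8) beside 58.5%. Of the p30 anti-CEBPA peaks 2 of 3 did, beside 22.1%. The sequences of the strongest shared sites are given next, because the promoter and enhancer values of the genes below refer back to them. Each is the 101 bases around the p42 anti-CEBPA summit on the forward strand of GRCm39, for the 8 members whose site ranked best, except Hp, whose window is not printed. Capitals mark matches to the CEBP consensus TTGCNNAA on either strand.

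Ms4a3, 6393 bases upstream of its nearest start site, between genes, chr19:11624541-11624641: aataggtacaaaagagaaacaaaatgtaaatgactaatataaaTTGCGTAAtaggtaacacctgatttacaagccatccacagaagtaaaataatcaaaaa
Srgn, 1172 bases upstream of its nearest start site, in an intron of Srgn, chr10:62345071-62345171: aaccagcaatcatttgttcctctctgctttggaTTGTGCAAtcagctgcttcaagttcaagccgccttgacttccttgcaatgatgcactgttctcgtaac
Ctsc, 32823 bases downstream of its nearest start site, between genes, chr7:87960115-87960215: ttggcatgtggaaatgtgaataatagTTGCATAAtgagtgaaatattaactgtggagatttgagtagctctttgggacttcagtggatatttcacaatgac
Serpinb1a, 16478 bases downstream of its nearest start site, in an intron of Wrnip1, chr13:33018622-33018722: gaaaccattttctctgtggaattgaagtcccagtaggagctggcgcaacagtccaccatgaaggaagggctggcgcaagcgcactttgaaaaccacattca
Cxcr2, 2716 bases upstream of the start site, between genes, chr1:74190384-74190484: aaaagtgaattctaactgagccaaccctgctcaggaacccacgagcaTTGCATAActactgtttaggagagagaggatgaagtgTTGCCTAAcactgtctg
Fcnb, 22334 bases upstream of the start site, between genes, chr2:27997181-27997281: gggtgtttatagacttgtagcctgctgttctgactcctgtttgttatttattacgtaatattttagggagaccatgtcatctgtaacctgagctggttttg
Anxa1, 11993 bases upstream of its nearest start site, between genes, chr19:20380317-20380417: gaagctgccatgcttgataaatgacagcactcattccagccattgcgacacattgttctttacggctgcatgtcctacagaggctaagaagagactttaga

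Of the 7 windows printed, 4 held the consensus. A site found with both antibodies in p42 cells and with neither in p30 cells was called for 7 members, and the reverse for 1, Itgb2. The shares of all genes with such sites were not computed, so no preference of these genes is read from the counts. Their best-ranked such sites are shown because the lists of the lines differ there. Those printed for p42 cells stood between the top 64.8% and 94.0% of the p42 anti-CEBPA list. In the p42 anti-ER list they stood between the top 35.7% and 88.4%. The p30 site of Itgb2 stood at the top 81.1% of the p30 anti-CEBPA list and 69.1% of the p30 anti-ER list. Each list is 1 library, so a missing call can be a site below the calling threshold. The window at S100a8 reaches into an untranslated region and is not printed.

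Anxa1, p42 cells only, chr19:20363898-20363998: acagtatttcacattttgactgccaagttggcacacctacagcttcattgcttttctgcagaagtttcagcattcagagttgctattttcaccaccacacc
Ltf, p42 cells only, chr9:110866829-110866929: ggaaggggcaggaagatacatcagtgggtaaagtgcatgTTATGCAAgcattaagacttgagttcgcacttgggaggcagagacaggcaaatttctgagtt
Cd177, p42 cells only, chr7:24453048-24453148: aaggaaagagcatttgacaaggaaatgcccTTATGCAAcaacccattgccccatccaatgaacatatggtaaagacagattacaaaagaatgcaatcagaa
Ly6g, p42 cells only, chr15:75009745-75009845: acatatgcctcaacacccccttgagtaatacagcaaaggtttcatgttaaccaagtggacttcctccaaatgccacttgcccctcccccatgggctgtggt
Ctsc, p42 cells only, chr7:87900845-87900945: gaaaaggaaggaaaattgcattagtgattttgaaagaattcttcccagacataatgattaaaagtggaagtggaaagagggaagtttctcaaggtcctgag
Itgb2, p42 cells only, chr10:77380874-77380974: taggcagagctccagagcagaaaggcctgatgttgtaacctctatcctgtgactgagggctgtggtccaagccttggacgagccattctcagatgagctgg
Itgb2, p30 cells only, chr10:77367842-77367942: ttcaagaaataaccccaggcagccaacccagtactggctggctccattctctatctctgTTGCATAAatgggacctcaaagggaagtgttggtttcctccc

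In windows of 200 bases the share of sites with the CEBP consensus among all sites of a list lay within the members' interval in each of the 4 lists. It stood at 45 of 85 member sites of the p42 anti-CEBPA list (52.9%, interval 42.4 to 63.2) beside 50.7% of all 47517 sites, and at 34 of 58 in p30 cells (58.6%, 45.8 to 70.4) beside 53.0%. With anti-ER it stood at 42% of the members' sites in p42 cells (31.8 to 52.8) beside 51.7%, and at 43.5% in p30 cells (33.5 to 54.1) beside 47.0%. In windows of 100 bases the share of all sites lay above the members' interval in both anti-ER lists, at 35.8% of the members' sites (26.2 to 46.7) beside 47.7% in p42 cells and 30.6% (21.8 to 41) beside 42.9% in p30 cells. Matches to different motifs were counted separately and may overlap. The PU.1 core GAGGAA, counted on both strands, stood at 30.6% of the members' sites in the p42 anti-CEBPA list (21.8 to 41) beside 19.1% of all its sites, and at 36.5% in the p30 anti-ER list (27 to 47.1) beside 25.1%. In the other 2 lists the share of all sites, 20.1% and 25.6%, lay within the members' interval. The RUNX core TGTGGT stood at 18.8% beside 16.0% and the AP-1 consensus TGANTCA at 7.06% beside 7.29% in the p42 anti-CEBPA list. Sites that met neither list of the other line are given by antibody, since the lines differ in which antibody called them. Of such p42 anti-CEBPA sites of members, 9 of 23 held the CEBP consensus (39.1%, 22.2 to 59.2) beside 44.2% of all, and of such p42 anti-ER sites 5 of 13 (38.5%, 17.7 to 64.5) beside 39.8%. Of the p30 anti-ER sites it stood at 2 of 17 (11.8%, 3.29 to 34.3) beside 28.0%, and of the p30 anti-CEBPA sites at 1 of 3 beside 40.3%. In the 3 lists with more than 3 such sites, the share of all sites lay within the members' interval.

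Sites of the granule and effector genes were more often seen by both antibodies than CEBPA sites at large. Here and in the comparisons of sites above, all sites include those far from any start site. Members' sites lie within 50 kb of one by definition, and the part of this in the differences was not tested. Of the 85 anti-CEBPA sites of members in p42 cells, 57 overlapped an anti-ER site of the same line (67.1%, 56.5 to 76.1), beside 38.1% of all 47517 sites. In p30 cells 46 of 58 did (79.3%, 67.2 to 87.7), beside 63.3%. Between the lines, 47 of the 85 p42 anti-CEBPA sites overlapped one of the p30 list, which is 55.3% for the members and 55.3% for all sites, and 81.0% of the p30 anti-CEBPA sites of members overlapped one of the p42 list beside 82.5%. With anti-ER, 79.0% of the p42 sites of members (68.9 to 86.5) were met in the p30 list beside 84.1%. The p30 anti-ER sites of members were met in the p42 list more often than all sites, at 71.8% (61.4 to 80.2) beside 57.0%. The members' sites also lay more often in marked chromatin. Their summits fell inside an untreated H3K27ac peak of the same line for 48.2% of p42 anti-CEBPA sites (37.9 to 58.7) beside 18.9% of all sites, and for 63.8% of p30 anti-CEBPA sites (50.9 to 74.9) beside 21.7%. The matching values for anti-ER were 66.7% beside 43.9% in p42 cells and 70.6% beside 38.3% in p30 cells.

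**Figure D2:**
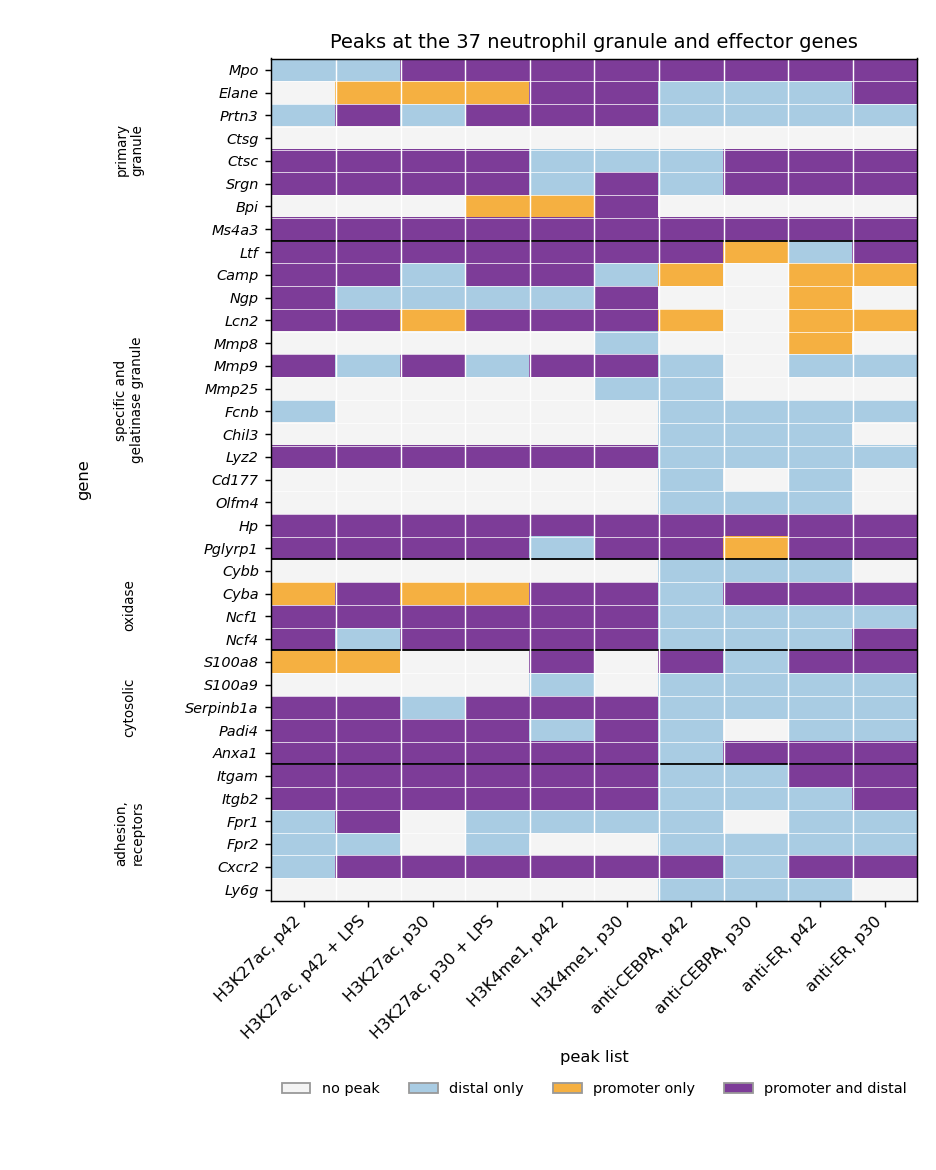
Peaks of the 37 genes (rows, grouped by role) in the 10 lists (columns). Colours give no peak, a distal peak only, a promoter peak only, or both. Ctsg is empty throughout, and Chil3, Cd177, Olfm4, Cybb and Ly6g carry CEBPA sites without any histone mark peak.

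Marks and CEBPA sites did not always meet. Chil3, Cd177, Olfm4, Cybb and Ly6g, 5 of 37 members, had a CEBPA site in at least 1 list and no H3K27ac or H3K4me1 peak in any list (13.5%, beside 14.2% of all genes). Promoter H3K27ac was present in all 4 lists at 14 members (Ctsc, Srgn, Ms4a3, Ltf, Lcn2, Lyz2, Hp, Pglyrp1, Cyba, Ncf1, Padi4, Anxa1, Itgam and Itgb2) and in none at 11. Distal H3K27ac was present in all 4 lists at 20 members and in none at 12. The counts of H3K27ac in all lists or in none were not made for all genes, so they have no background beside them.

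Among the primary granule genes, marks and CEBPA sites were dense at Mpo, Srgn, Prtn3, Ms4a3 and Ctsc and absent or thin at Ctsg and Bpi. In what follows, covered bases are the summed lengths of all promoter and distal peaks of a gene, and fold is the authors' fold enrichment at the summit, which moves with the depth and calling of each list, so that folds of different lists are given side by side without a test. Mpo (chr11:87684407-87695239, plus strand) encodes myeloperoxidase, which forms hypochlorous acid. Its H3K27ac peaks covered 21357 bp in untreated p42 cells, 21077 bp with LPS, 20403 bp in untreated p30 cells and 20770 bp with LPS. Its H3K4me1 peaks covered 4780 bp in p42 and 12665 bp in p30 cells. The strongest CEBPA site, 3396 bases upstream, had a fold of 14.8 with anti-CEBPA in p42 cells, 9.78 in p30 cells, 25.2 with anti-ER in p42 cells and 55.3 in p30 cells. In the p30 anti-ER list it stood in the top 1.41% of all sites. Acetylation thus varied little over the 4 lists and H3K4me1 was more than 2-fold wider in p30 cells. The 2 H3K27ac lists of p42 cells showed no promoter peak for Mpo only because the summit of a broad peak lay 1018 and 1002 bases from the start site.

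Prtn3 and Elane (chr10:79710310-79719008 and chr10:79722081-79724051) encode proteinase 3 and neutrophil elastase, serine proteases of primary granules, and are neighbours. Prtn3 was covered by H3K27ac over 16282 bp in untreated p42 cells, 13124 bp with LPS, 12723 bp in untreated p30 cells and 12689 bp with LPS. An intronic site of Prtn3, 1668 bases upstream of its nearest start site, had folds of 9.14 and 9.16 for anti-CEBPA in p42 and p30 cells, and anti-ER folds of 16.3 and 14.7. Elane had its own H3K27ac peak in 3 lists, of 876 bp in LPS-treated p42 cells, 707 bp in untreated and 614 bp in LPS-treated p30 cells. In untreated p42 cells no summit was nearest to Elane and its coverage was 0 bp, while the bases within 20 kb of its start sites were covered over 25978 bp, beside 21241 bp in LPS-treated p42 and 22371 bp in untreated p30 cells. A CEBPA site 1560 bases upstream of Elane was in all 4 lists with folds between 6.05 and 7.56.

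Srgn (chr10:62329029-62363238, minus strand) encodes serglycin, the proteoglycan to which granule proteases bind. It was the widest marked primary granule gene, with H3K27ac over 28027 bp in untreated p42 cells, 26608 bp with LPS, 22011 bp in untreated p30 cells and 23870 bp with LPS. The intronic site printed above had anti-CEBPA folds of 32.3 in p42 and 45.6 in p30 cells and anti-ER folds of 33.7 and 42, within the top 1.64% to 2.83% of each list. Ms4a3 (chr19:11606860-11618215, minus strand), a membrane protein gene that marks granulocyte and monocyte progenitors, had its upstream site at the same level, with anti-CEBPA folds of 37.3 and 43.8 and anti-ER folds of 30.2 and 45.2. Its H3K27ac covered 8908, 8699, 6674 and 8254 bp in the order used for Srgn. These 2 sites were the best-ranked anti-CEBPA sites of any member in p42 cells.

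Ctsc (chr7:87927092-87960096, plus strand) encodes cathepsin C, which activates the granule serine proteases. Its H3K27ac covered 3499 bp in untreated p42 cells, 2674 bp with LPS, 2133 bp in untreated p30 cells and 3475 bp with LPS. It had the most CEBPA sites of any member in the p42 anti-CEBPA list, 11 distal ones, and the best of them had a fold of 27.4. That site, printed above, had folds of 8.85 with anti-CEBPA in p30 cells, 6.24 with anti-ER in p42 cells and 5.39 in p30 cells. A second site 41213 bases downstream of the nearest start site had anti-CEBPA folds of 26.9 and 22.8. Ctsg (chr14:56337338-56340031, minus strand), the gene of cathepsin G, had no peak in any of the 10 lists. Bpi (chr2:158100014-158126451, plus strand), the gene of a protein that permeabilises bacteria, had no CEBPA site, H3K27ac over 172 bp in LPS-treated p30 cells alone, and H3K4me1 over 309 bp in p42 and 1039 bp in p30 cells.

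The specific and gelatinase granule genes split into marked and unmarked ones, and 2 of the marked ones, Camp and Lcn2, were among those that differed most between the lines. Camp (chr9:109676442-109678685, minus strand) encodes the antimicrobial peptide cathelicidin. H3K27ac covered 6302 bp in untreated p42 cells, 6204 bp with LPS, 1124 bp in untreated p30 cells and 3343 bp with LPS. Only the untreated p30 list lacked a promoter peak. The CEBPA site at the Camp promoter, 52 bases upstream of the start site, had a fold of 19.4 (anti-CEBPA) and 30.7 (anti-ER) in p42 cells, and of 15.3 (anti-ER) in p30 cells, and was not called with anti-CEBPA in p30 cells. H3K4me1 covered 3342 bp in p42 and 1248 bp in p30 cells.

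Lcn2 (chr2:32274645-32278264, minus strand) encodes lipocalin 2, which withholds iron from bacteria. H3K27ac covered 2012 bp in untreated p42 cells, 3352 bp with LPS, 174 bp in untreated p30 cells and 1596 bp with LPS, so the lowest list was again that of untreated p30 cells. A promoter site 127 bases upstream of the nearest start site had folds of 9.60 (anti-CEBPA) and 16.8 (anti-ER) in p42 cells, and of 10.4 (anti-ER) in p30 cells, and no anti-CEBPA call in p30 cells. H3K4me1 covered 3817 bp in p42 and 1650 bp in p30 cells. At Camp and Lcn2 alike, p42 cells had the wider marks and the only anti-CEBPA call.

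Hp (chr8:110301759-110305804, minus strand) encodes haptoglobin, which binds free hemoglobin. Its promoter held the best-ranked anti-ER site of any member, with folds of 37.2 in p42 and 75.2 in p30 cells and anti-CEBPA folds of 19.6 and 36.3. It lay 77 bases upstream of the start site. H3K27ac covered 10507 bp in untreated p42 cells, 12881 bp with LPS, 7037 bp in untreated p30 cells and 8064 bp with LPS. In each treatment the p42 list had the larger coverage. Pglyrp1 (chr7:18605256-18624384, plus strand), the gene of a peptidoglycan-binding protein, had a promoter site in all 4 lists with anti-CEBPA folds of 10.2 and 15.2 and anti-ER folds of 9.36 and 19.0, and H3K27ac between 4638 and 5862 bp.

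Ltf (chr9:110848339-110871835, plus strand), the gene of the iron-binding lactoferrin, was covered by H3K27ac over 6477 bp in untreated p42 cells, 4139 bp with LPS, 5709 bp in untreated p30 cells and 4703 bp with LPS. A promoter site 43 bases upstream of a start site was called with anti-CEBPA in both lines (folds of 10.1 and 10.1) and with anti-ER in p30 cells (11.3). Lyz2 (chr10:117111557-117118346, minus strand), the gene of the lysozyme of myeloid cells, had H3K27ac over 8540, 5966, 4481 and 5554 bp in that order of lists. One site, 2710 bases upstream, carried its CEBPA call in all 4 lists, with folds between 4.75 and 9.67. H3K27ac covered both genes most widely in untreated p42 cells. H3K4me1 covered 5923 bp in p42 and 10912 bp in p30 cells at Ltf, and 8156 and 5075 bp at Lyz2, so the lines stood in opposite order at the 2 genes.

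Fcnb (chr2:27966389-27974897, minus strand) encodes ficolin B, a lectin that recognises bacterial sugars. It had H3K27ac only in untreated p42 cells, over 975 bp, and no H3K4me1 peak. Its site 22334 bases upstream was nonetheless in all 4 lists, with anti-CEBPA folds of 22.1 and 23.3 and anti-ER folds of 11.8 and 11.3. Mmp9 (chr2:164780439-164797771, plus strand), the gelatinase gene, had H3K27ac between 1815 and 2526 bp and H3K4me1 over 5715 bp in p42 and 8751 bp in p30 cells. Its CEBPA sites had folds of at most 11.6. Ngp (chr9:110248815-110252086, plus strand), the gene of a granule protein related to the cathelicidins, had H3K27ac over 1502 bp in untreated p42 cells, 510 bp with LPS, 3283 bp in untreated p30 cells and 1689 bp with LPS, the reverse order of lines from Camp and Lcn2. Its only CEBPA site was an anti-ER call in p42 cells with a fold of 6.72.

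The other members of these granules had little or no mark. Mmp8, the neutrophil collagenase gene, and Mmp25, the gene of a membrane-bound matrix metalloproteinase, had no H3K27ac peak and 1 H3K4me1 peak each, in p30 cells, of 178 and 300 bp. Each had a single CEBPA call, with anti-ER in p42 cells for Mmp8 (fold of 4.89) and with anti-CEBPA in p42 cells for Mmp25 (4.25). Olfm4, the gene of the granule glycoprotein olfactomedin 4, had a site 13846 bases downstream of its nearest start site and 30067 bases from the 5′ end of the gene, with folds of 14.8 with anti-CEBPA in p42 cells, 9.78 in p30 cells and 5.04 with anti-ER in p42 cells. Chil3, which encodes a chitinase-like protein, had anti-CEBPA folds of 8.81 and 11.6 and an anti-ER fold of 5.04 in p42 cells. Cd177, a surface receptor gene of neutrophils, had only the p42 site printed above, with folds of 5.12 and 5.04 near the end of both lists.

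Of the oxidase subunits, 3 of 4 were covered by H3K27ac in every list and 1, Cybb, in none. Cybb (chrX:9301491-9354010, minus strand) encodes the catalytic subunit gp91phox. It had intronic CEBPA sites with no mark beside them, the best of which had anti-CEBPA folds of 11.5 in p42 and 9.78 in p30 cells, and its best anti-ER fold was 4.08 in p42 cells. Cyba (chr8:123150422-123159706, minus strand), its membrane partner p22phox, had H3K27ac over 8961 bp in untreated p42 cells, 8666 bp with LPS, 8356 bp in untreated p30 cells and 9363 bp with LPS. The best Cyba site, 5198 bases upstream in an intron of Mvd, had anti-CEBPA folds of 14.4 and 5.23 and anti-ER folds of 16.1 and 20.4.

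Ncf1 (chr5:134248907-134258479, minus strand) and Ncf4 (chr15:78128982-78146784, plus strand) encode the cytosolic subunits p47phox and p40phox. Ncf1 had H3K27ac over 16356 bp in untreated p42 cells, 14893 bp with LPS, 17497 bp in untreated p30 cells and 16769 bp with LPS. Ncf4 had 24461, 23289, 24175 and 24226 bp in that order. At both genes the 4 lists lay within a factor of 1.5 of each other. The Ncf1 site 3153 bases upstream had anti-CEBPA folds of 16.7 and 13.5 and anti-ER folds of 19.4 and 33.8, and the intronic Ncf4 site 13074 bases downstream of its nearest start site had 12.5 and 11.4, then 13.7 and 23.8.

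Among the cytosolic effectors, S100a8, Serpinb1a and Anxa1 were covered more widely in p42 than in p30 cells. S100a8 and S100a9 (chr3:90567118-90578128 and chr3:90599931-90603071) are neighbours and encode the subunits of calprotectin, which binds zinc and manganese. S100a8 had H3K27ac over 1810 bp in untreated p42 cells and 822 bp with LPS, and none in either p30 list. H3K4me1 covered 919 bp in p42 cells and nothing in p30 cells. A promoter site 64 bases downstream of a start site had folds of 10.1 (anti-CEBPA) and 19.7 (anti-ER) in p42 cells, and of 7.35 (anti-ER) in p30 cells. S100a9 had no H3K27ac in any list, and its site 8614 bases downstream of a start site had folds of 11.1 and 5.58 for anti-CEBPA in p42 and p30 cells, and anti-ER folds of 12.0 and 3.78. At both genes the p42 values were the larger wherever both lines had a call.

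Serpinb1a (chr13:33026042-33035224, minus strand) encodes an inhibitor of elastase, proteinase 3 and cathepsin G. H3K27ac covered 16301 bp in untreated p42 cells, 14076 bp with LPS, 8560 bp in untreated p30 cells and 7790 bp with LPS. Its best H3K27ac peak stood in the top 0.897% of the untreated p42 list, the best place of any member there, and in the top 5.31% of the untreated p30 list. The site printed above, in an intron of Wrnip1, had anti-CEBPA folds of 25.1 and 9.70 and anti-ER folds of 29.9 and 30.3 in p42 and p30 cells. H3K4me1 covered 13123 and 13870 bp, so the marks differed in their order of lines.

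Anxa1 (chr19:20350792-20368374, minus strand) encodes annexin A1, which dampens neutrophil recruitment. H3K27ac covered 13870 bp in untreated p42 cells, 12551 bp with LPS, 6656 bp in untreated p30 cells and 7105 bp with LPS. The site 11993 bases upstream had anti-CEBPA folds of 19.7 and 11.4 and anti-ER folds of 16.0 and 20.2. Padi4 (chr4:140472808-140501939, minus strand), the gene of the enzyme that citrullinates histones in extracellular traps, had H3K27ac over 3933, 2728, 3762 and 3515 bp, with CEBPA folds of 7.68 with anti-CEBPA in p42 cells, 8.16 with anti-ER in p42 and 10.3 in p30 cells.

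**Figure D3:**
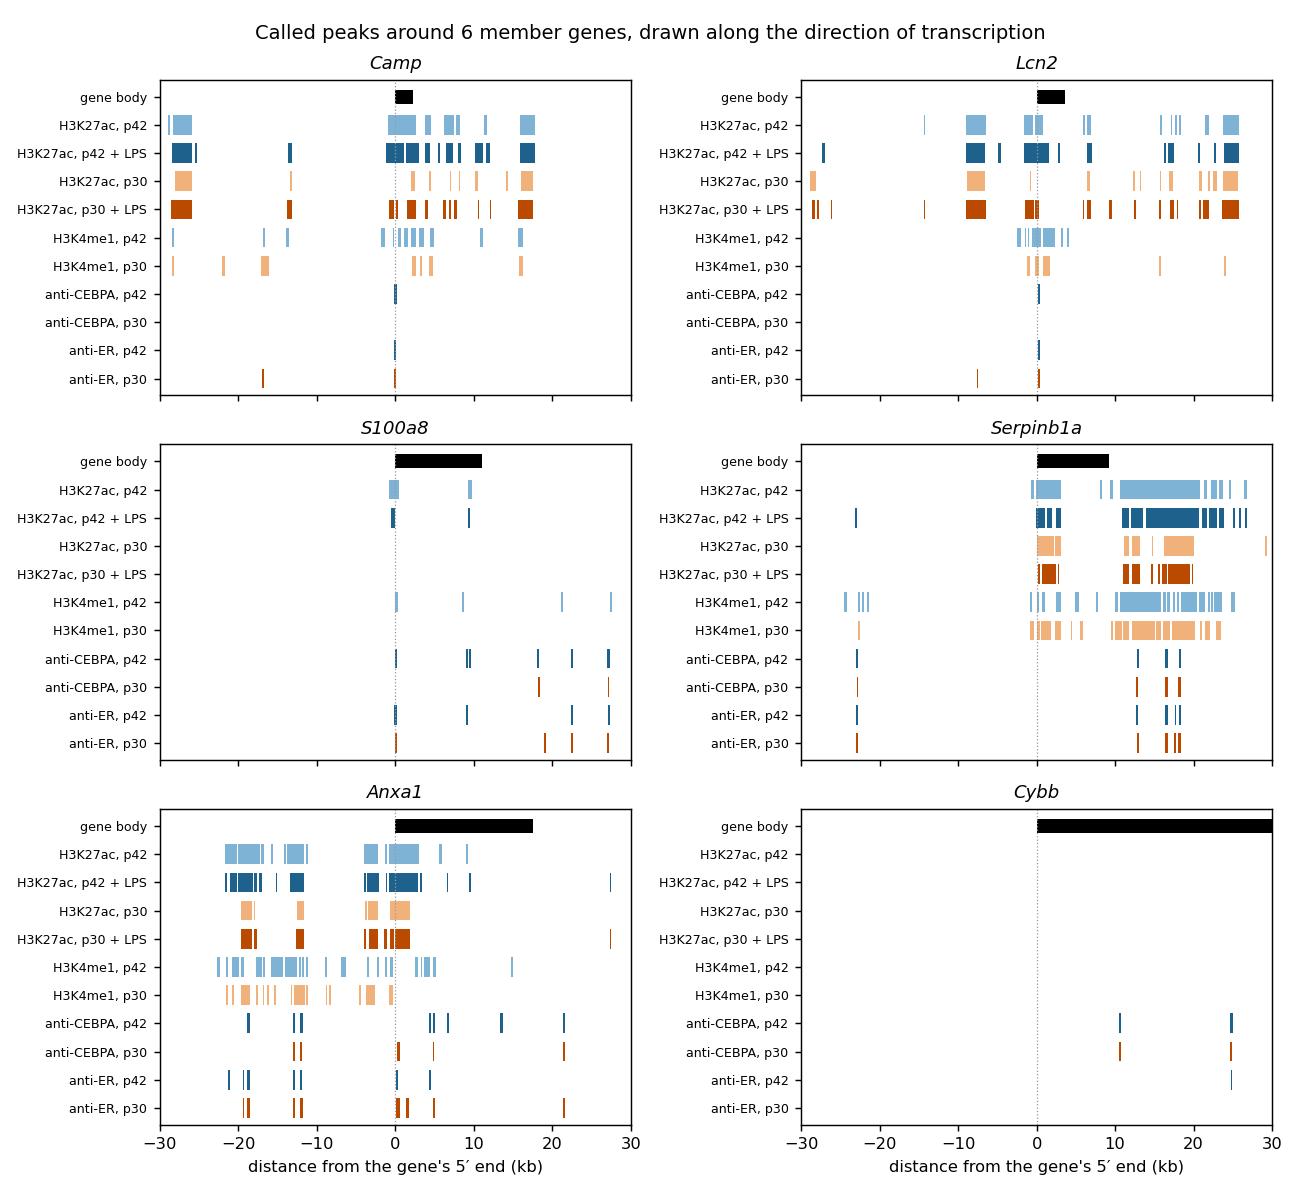
Called peaks within 30 kb of the 5′ end of 6 genes (x axis, kb along the direction of transcription), 1 row per list, with the gene body in black. S100a8 has 4 annotated start sites and is drawn from the one furthest upstream. Camp, Lcn2 and S100a8 have fewer or shorter H3K27ac bars in untreated p30 than in p42 cells, Serpinb1a and Anxa1 have narrower ones, and Cybb has CEBPA sites alone.

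Of the adhesion molecules and receptors, the integrin genes were covered alike in all lists and the formyl peptide receptor genes were not. Itgam (chr7:127661808-127717753, plus strand) and Itgb2 (chr10:77366086-77401542, plus strand) encode the 2 chains of Mac-1, CD11b and CD18. Itgam had H3K27ac over 19531 bp in untreated p42 cells, 18769 bp with LPS, 18139 bp in untreated p30 cells and 23368 bp with LPS. Itgb2 had 22025, 22122, 20973 and 22867 bp in that order. The best Itgb2 site, 20733 bases downstream of its nearest start site, had anti-CEBPA folds of 12.0 and 5.42 and anti-ER folds of 19.6 and 15.9. An intronic Itgam site 26693 bases downstream had 6.95 and 14.3, then 8.73 and 11.5.

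Cxcr2 (chr1:74193150-74200405, plus strand), the receptor for neutrophil-attracting chemokines, had H3K27ac over 15232, 14132, 13473 and 13355 bp. Its upstream site, printed above with both matches to the consensus, had anti-CEBPA folds of 23.1 and 14.8 and anti-ER folds of 25.5 and 24.1. Fpr1 and Fpr2 (chr17:18096733-18104202 and chr17:18108070-18114215) are adjacent and encode receptors for formylated bacterial peptides. Fpr1 had H3K27ac over 1535 bp in untreated p42 cells, 2039 bp with LPS, 0 bp in untreated p30 cells and 413 bp with LPS. Fpr2 had 242 bp, 1984 bp, 0 bp and 306 bp. Both had the largest coverage in LPS-treated p42 cells. The Fpr1 site 12102 bases downstream of the start site had folds of 5.40 (anti-CEBPA) and 16.2 (anti-ER) in p42 cells, and of 8.92 (anti-ER) in p30 cells. The Fpr2 site 13177 bases downstream, in an intron of Fpr3, had anti-CEBPA folds of 10.2 and 8.50 and anti-ER folds of 15.1 and 11. Ly6g (chr15:75027089-75030982, plus strand), the gene of the Gr-1 antigen of mature neutrophils, had no mark and a best anti-CEBPA fold of 12.5 in p42 and 6.54 in p30 cells.

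**Figure D4:**
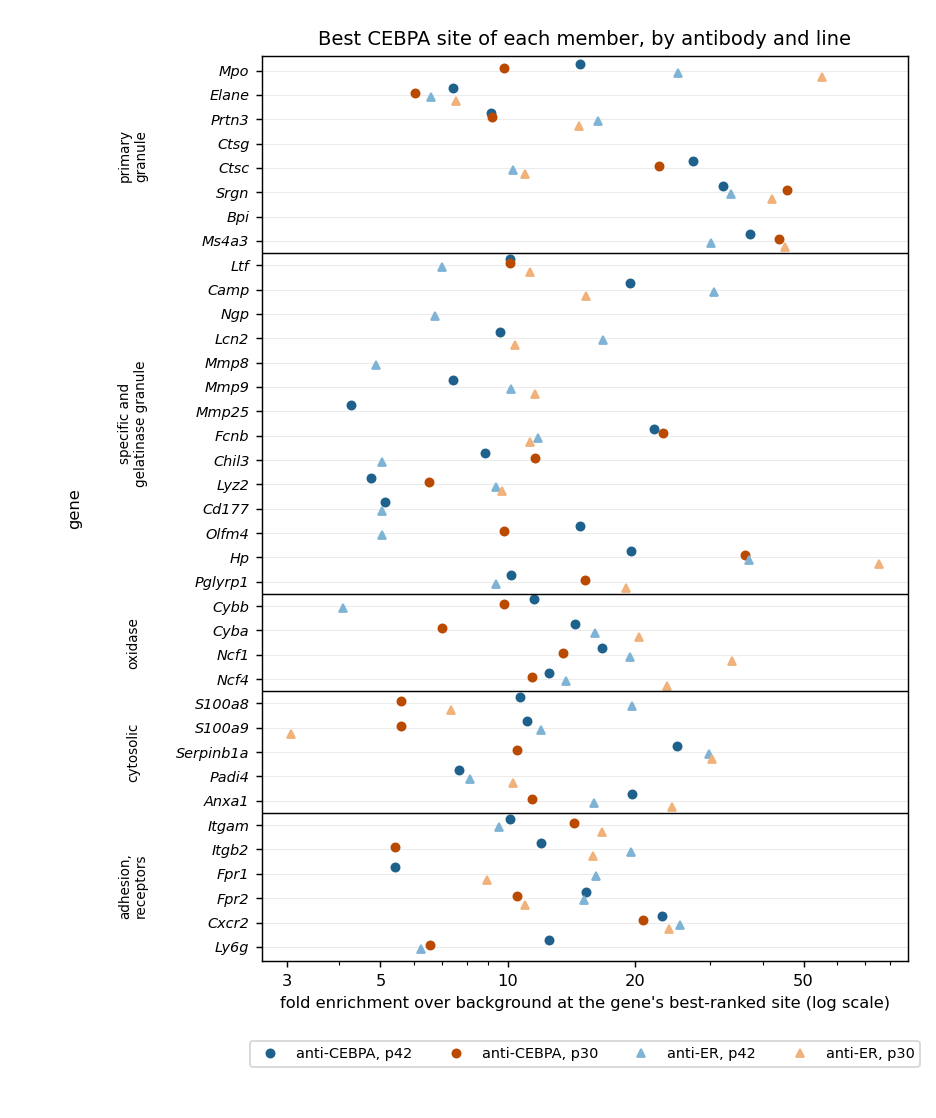
Fold enrichment (x axis, log scale) at the best-ranked CEBPA site of each gene (rows, grouped by role). Circles are anti-CEBPA and triangles anti-ER, in blue for p42 and orange for p30 cells, and a missing symbol means no call. Hp (75.2), Mpo (55.3) and Ms4a3 (45.2) reach furthest to the right with anti-ER in p30 cells, and Camp and Lcn2 lack the p30 anti-CEBPA circle.

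Fold at sites shared by the lines differed between the antibodies in the members as in all sites. At the 47 p42 anti-CEBPA sites of members with a p30 partner, the median log2 ratio of the p30 to the p42 fold was -0.31, and it was -0.24 over all 26254 such sites. At the 64 anti-ER sites with a partner it was 0.24, and 0.29 over all 19544. The opposite signs of the antibodies leave no common direction between the isoforms.

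The effect of LPS and the difference between the lines were read from covered bases, over members with at least 500 bp in 1 of the 2 lists. A change was called at 2-fold. The H3K27ac list of LPS-treated p42 cells was the shortest, with 95.4 Mb covered beside 115.0 to 122.0 Mb in the other H3K27ac lists. With LPS, p42 cells had more H3K27ac at 2 of 27 members, Elane and Fpr2, beside 1.72% of all genes, and less at 3, Fcnb, Ngp and S100a8, beside 6.15%. Fpr2, at 8.20-fold, was the largest of those with a value in both lists. In p30 cells LPS came with more coverage at 2 of 23 members, Lcn2 (9.17-fold) and Camp (2.97-fold), beside 3.71% of all genes, and with less at 0, beside 2.69%. The median log2 ratio over members covered in both lists was -0.11 in p42 cells, where it was -0.24 over all genes, and 0.09 in p30 cells, where it was 0.01.

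Between the lines, untreated p30 cells had less H3K27ac than p42 cells at 6 of 26 members, Anxa1 (2.08-fold), Lcn2 (11.6-fold), Camp (5.61-fold), Fcnb, Fpr1 and S100a8, beside 4.48% of all genes. The last 3 had no peak in untreated p30 cells. The Lcn2 values leave out a strong H3K27ac peak that was tied to another gene. It ran from -8962 to -6497 bp of the Lcn2 5′ end in untreated p42 cells (top 2.4% of the list). In untreated p30 cells it ran from -8900 to -6556 bp (top 2.31%). More coverage was called at 2, Elane and Ngp (2.19-fold), beside 5.61% of all genes. Any difference, called or not, was toward less coverage in p30 cells at 23 of the 26 and toward more at 3, and the median log2 ratio was -0.18 in the members against 0.03 in all genes. Some of these differences were small, as at Pglyrp1 with 5398 bp in p42 and 5280 bp in p30 cells. With LPS, p30 cells had less at 4 of 26 members, Lcn2 (2.10-fold), Fpr1 (4.94-fold), Fpr2 (6.48-fold) and S100a8, beside 2.53% of all genes, and more at 1, Ngp (3.31-fold), beside 10.8%. Here 15 of the 26 were lower and 11 higher in p30 cells, with a median log2 ratio of -0.05 against 0.27 in all genes. The counts of any difference, untreated and with LPS, were not made for all genes.

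H3K4me1 moved in both directions. Less was called in p30 cells at 4 of 26 members, Lcn2 (2.31-fold), Camp (2.68-fold), Fpr1 (4.89-fold) and S100a8, beside 7.23% of all genes. More was called at 4, Mpo (2.65-fold), Elane (2.15-fold), Ngp (3.02-fold) and Bpi (3.36-fold), beside 27.8%. The p30 H3K4me1 list covered 112.0 Mb and the p42 list 79.9 Mb, and the median log2 ratio was 0.24 in the members and 0.42 in all genes. Lcn2, Camp, Fpr1 and S100a8 were called at 2-fold with less of both marks in untreated p30 cells, and Ngp and Elane were called with more of both. Smaller differences in the same direction in both marks, such as those of Hp and Lyz2, did not reach that ratio in either. For Elane the H3K27ac call rests on which gene the summit of a neighbouring broad peak was nearest to. The part of list length in these counts was not tested beyond the alternatives given in the closing section.

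**Figure D5:**
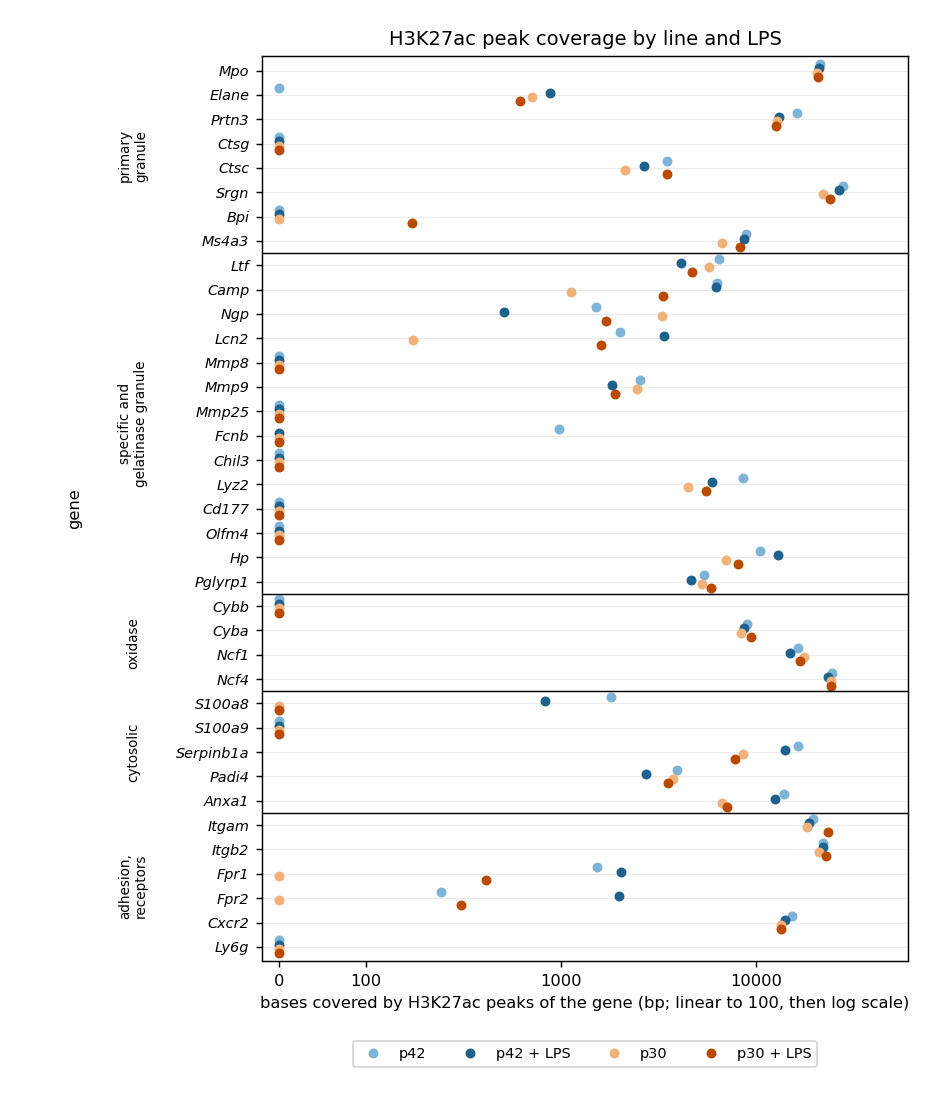
Bases covered by H3K27ac peaks (x axis, linear to 100 bp and then log scale) at each of the 37 genes (rows) in untreated and LPS-treated p42 (blue) and p30 (orange) cells. Untreated p30 cells stand lowest at Camp (1124 bp) and Lcn2 (174 bp), S100a8 has none in either p30 list, and Ncf1, Ncf4, Itgam and Itgb2 show the lists close together.

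For comparison, 27 further neutrophil genes that are no members, such as Rac2, Csf3r and Gfi1, carried promoter H3K27ac at 21, 21, 20 and 21 genes in the 4 lists. The members had the lower share of acetylated promoters, 51.4% to 59.5% against 74.1% to 77.8%, and of distal H3K27ac, 54.1% to 64.9% against 85.2% to 92.6%. They also had less H3K4me1, at promoters 54.1% and 59.5% against 74.1% and 77.8% in p42 and p30 cells, and at distal sites 70.3% and 73.0% against 88.9% and 92.6%. Promoter CEBPA sites were fewer in the members too, at 24.3% in either line against 44.4% and 29.6% for anti-CEBPA, and at 40.5% and 45.9% against 51.9% and 59.3% for anti-ER. Distal CEBPA sites were called for more of the members in 3 lists, at 83.8% and 64.9% against 66.7% and 55.6% for anti-CEBPA and at 81.1% against 70.4% for anti-ER in p42 cells, and for fewer of them for anti-ER in p30 cells, at 67.6% against 74.1%. This list was chosen with earlier results known, and the difference between the lists was not tested. High shares of H3K4me1 and CEBPA sites were not particular to the members. Promoter H3K4me1 stood at 66.7% and 75.0% of stem and progenitor markers in p42 and p30 cells, and at 62.5% and 75.0% of macrophage markers. Distal CEBPA sites stood at 91.7% to 100% of stem and progenitor markers. They were fewer at erythroid and megakaryocyte markers (30.0%) and lymphoid markers (0% to 10.0%).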

How the data were processed

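Per the methods of the study, the authors trimmed reads (Trim Galore 0.6.6 in the submitters' processing notes), aligned them with Bowtie2 to mm39, removed duplicates with Picard and called peaks with MACS2 against input. The deposited lists give each peak's fold enrichment (a ratio) and the −log10 of its p-value and q-value, and the weakest listed peaks have a q-value near 0.05. The file names of the anti-CEBPA lists lack a calling mark that the other mouse lists carry, so settings possibly differed. A human list was not used here, and 1 gene of the list of further neutrophil genes is not reported here.

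Peaks on chromosomes 1 to 19, X and Y were tied by their summit to start sites of 21440 protein-coding genes. Fold and −log10 values were used to rank or describe peaks within a list. The share of all genes is the background, and no test was run, since each list is pooled or holds 1 library. Genes were named in full where both antibodies gave a site in both lines, and otherwise by call or as the unmarked genes of each role. The members and lists were chosen with earlier results of these data known. The steps were tested on simulated data. Python 3.11.15, matplotlib 3.10.9, scipy 1.17.1, pandas 2.3.3 and numpy 2.4.6 were used.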

Additional observations from a re-analysis of the deposited data

How the results depend on the processing

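No paired analysis was possible because each list was called on pooled replicates or 1 library, and leaving out a replicate could not be done for the same reason. Of 120 alternative values of the promoter and distal shares, 113 stayed within the Wilson interval of the reported share. With promoters of 2.5 kb, promoter shares of the members in p42 cells were 40.5% for anti-CEBPA beside 19% of all genes and 56.8% for anti-ER beside 15.2%. With every gene within 50 kb of a distal summit, distal shares were 81.1% for H3K27ac in untreated p42 cells beside 70.8% of all genes, 70.3% in untreated p30 cells beside 71%, 86.5% for H3K4me1 in p42 cells beside 67.7%, and in p30 cells 81.1% for anti-CEBPA beside 67.5% and 81.1% for anti-ER beside 68.4%. The 15 recounts of CEBPA site classes stayed within 1.5 times the reported counts.

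Counts of members called at 2-fold were small and moved by 1 to 4 genes in the settings below, each given with the share of all genes called in it. Less H3K27ac with LPS in p30 cells went from 0 members to 1 at q under 1e-05 (3% of all genes), to 1 with equal numbers of peaks (3.09%) and to 1 at a ratio of 1.5 (6.76%). More H3K27ac in untreated p30 than p42 cells went from 2 to 1 at q under 1e-05 (5.94%) and to 1 within 20 kb of start sites (3.61%). With LPS, more went from 1 to 0 at q under 1e-05 (10.3%) and to 0 with equal numbers of peaks (8.05%), and less from 4 to 8 at a ratio of 1.5 (4.86%). More H3K4me1 in p30 cells went from 4 to 7 at a ratio of 1.5 (43.6%) and to 2 within 20 kb (24%). Counting bases within 20 kb, an alternative added after seeing the data, turned both H3K27ac calls of Elane around, to -4737 bp with LPS in p42 cells and to -3607 bp in untreated p30 against p42 cells, since peaks nearest to Prtn3 then counted for Elane too. Over all alternatives, rechecks of the called members kept a call in 91 cases, lost it without turning around in 19 and turned around in 2. The CEBP consensus in 100 bp windows stood at 41.2% of member sites beside 44.3% of all sites in the p42 anti-CEBPA list and at 30.6% beside 42.9%, outside the members' interval, in the p30 anti-ER list, and ATTGCNNAA in 200 bp at 25.9% (p42) and 32.8% (p30) of anti-CEBPA sites beside 30.3% and 32.5%, and at 19.8% (p42) and 20.0% (p30) of anti-ER sites beside 27.8% and 25.6%. Depth is not given by peak lists, and a gene without a call was not detected at this depth.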
